A study of Mus musculus with 6 samples.

Results

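The MAPK cascade kinases are the protein kinases that pass a signal through the mitogen-activated protein kinase pathway, and 35 of them were followed by gene symbol in dental pulp with and without *Mmp13*. They comprise 12 terminal MAP kinases, 7 MAP2 kinases, 14 MAP3 kinases and the Raf kinases *Araf* and *Braf*. The 35 symbols matched 36 of 53342 genes in the table, because 2 Ensembl genes carry the symbol *Map2k7*, and all 36 genes passed the filter on low counts. RNA was sequenced from pulp of 3 WT samples and 3 samples of mice homozygous for a deletion of *Mmp13*, here *Mmp13*-/- and labelled MMP13KO, all C57BL/6 and aged 3 months. Each library came from an independent biological sample, and the libraries are numbered 2, 4 and 5 in WT and 1, 2 and 6 in *Mmp13*-/-. Values of single samples are given in that order throughout. No other allele or treatment is named for either genotype, and the deletion is a global one, so that every tissue of the animal lacks the gene. Molars are given as the source of the pulp in the labels and incisors in the methods. Of the sample titles, only those of WT name molars.

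In these cascades a MAP3 kinase or Raf phosphorylates a MAP2 kinase, which phosphorylates a terminal MAP kinase on the threonine and the tyrosine of its activation loop. Growth factors act mainly through the ERK arm, whereas stress and inflammatory signals act through the JNK and p38 arms, and ERK5 has a dedicated MAP2 kinase of its own. In pulp these cascades are known for relaying growth factor, cytokine and matrix signals to odontoblasts, the cells that lay down dentin. Kinase activity depends on phosphorylation, which was not measured here, so all values describe transcript levels.

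The terminal kinases are told apart by their activation loop. Its coding DNA, from the conserved aspartate-phenylalanine-glycine residues to the phosphorylated tyrosine, is shown for 10 of them. Sequences were read from the GENCODE M21 transcripts of GRCm38, 5′ to 3′ on the strand of the gene, and capitals mark the codons of the threonine, the middle residue and the tyrosine. Each stretch lies within 1 coding exon.
Mapk3, ERK1, chr7:126763404-126763466 (+): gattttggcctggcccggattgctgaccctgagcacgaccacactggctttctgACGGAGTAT
Mapk7, ERK5, chr11:61491422-61491487 (-): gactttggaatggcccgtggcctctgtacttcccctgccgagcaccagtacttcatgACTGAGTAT
Mapk8, JNK1, chr14:33393003-33393053 (-): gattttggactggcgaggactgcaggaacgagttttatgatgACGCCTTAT
Mapk9, JNK2, chr11:49872788-49872838 (+): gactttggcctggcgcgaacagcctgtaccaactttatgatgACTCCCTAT
Mapk10, JNK3, chr5:102989681-102989731 (-): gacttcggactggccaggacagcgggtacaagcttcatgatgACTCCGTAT
Mapk11, p38β, chr15:89145866-89145910 (-): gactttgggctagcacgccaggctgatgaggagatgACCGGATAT
Mapk12, p38γ, chr15:89134676-89134720 (-): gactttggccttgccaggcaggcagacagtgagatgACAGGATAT
Mapk13, p38δ, chr17:28776308-28776352 (+): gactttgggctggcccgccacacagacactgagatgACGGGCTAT
Mapk14, p38α, chr17:28728363-28728407 (+): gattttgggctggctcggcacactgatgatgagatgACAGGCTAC
Mapk15, ERK7/8, chr15:75996086-75996154 (+): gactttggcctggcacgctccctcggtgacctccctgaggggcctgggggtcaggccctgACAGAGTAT
The middle residue of the phosphorylated triplet was glutamate in *Mapk3*, *Mapk7* and *Mapk15*, proline in the 3 JNK genes and glycine in the 4 p38 genes. No such triplet was found in the searched window of *Mapk6*, the atypical kinase ERK3. *Mapk4*, the atypical kinase ERK4, was left out by a fixed rule, whatever the search gave, so nothing is said of its loop. Over these stretches *Mapk8* differed from *Mapk9* at 13 of 51 bases and from *Mapk10* at 11, and the p38 genes differed from each other at 9 to 13 of 45 bases.

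Library totals ranged from 28442936 to 29980236 estimated counts in WT and from 21561420 to 26547121 in *Mmp13*-/-, and did not overlap. The floor of detection, set at 3 counts, came to at most 0.139 CPM (counts scaled to a fixed total per library) and covers counting error alone. Normalized counts are counts scaled to a common library size. On this scale *Mmp13* itself stood at 1009, 1072 and 826 in WT, against 8.85, 30.1 and 64.0 in *Mmp13*-/-, so the targeted transcript was low in each library labelled as deficient. *Mmp13*-/- sample 6 stood apart from the other two deficient samples, with a chi-square per degree of freedom of 411 and 317 against them where samples 1 and 2 gave 41.1. The 1451 odorant and vomeronasal receptor genes, whose expression is known from sensory neurons and not from pulp, held 17.8 to 20.8 CPM in WT and 308, 355 and 1196 in the *Mmp13*-/- libraries. Their level per kilobase of exon was taken as the background of each library. The genotypes also differed by base composition, since the median log2 fold change of all well-expressed genes ran from 0.76 in the lowest of 10 groups by GC content to −1.11 in the highest. Kinase results are therefore also given after a correction of each library for GC content. Library number, preparation batch and genotype cannot be told apart, because no batch is stated and the genotypes share only the number 2.

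Across the 36 genes more kinases fell than rose in *Mmp13*-/-. At an adjusted p under 0.05 in edgeR's quasi-likelihood test, 18 were lower (24.3% of all 24534 genes tested were), 5 were higher (27.3% of all genes were), and 13 did not pass. Over 2-fold, 7 kinases were lower (9.68% of all genes) and 2 higher (20.4% of all genes). The 3 samples of each genotype did not overlap for 21 kinases lower in *Mmp13*-/- (29.1% of all genes) and 6 higher (31.8% of all genes). The median log2 fold change of the kinases was −0.52, against 0.10 over all genes tested, scarce ones included. Among well-expressed genes in the group by GC content that holds the median kinase, at 53.6%, the median was −0.60. In bulk tissue, fewer cells of a type and less RNA per cell cannot be told apart, and this holds for every difference below.

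Fewer kinases passed with the GC correction. With it, 8 kinases were lower (13.2% of all genes) and 6 higher (23.7% of all genes), while 0 were lower over 2-fold (3.3% of all genes) and 3 higher over 2-fold (16.3% of all genes). The median log2 fold change moved to −0.06, with 0.22 over all genes. Of the 23 kinases called without the correction, 10 kept their direction and call, 8 kept their direction without the call and 5 turned direction. Without *Mmp13*-/- sample 6, 19 kinases were lower (23.8% of all genes) and 5 higher (27.5% of all genes), with a median of −0.42. With the background subtracted, 16 were lower (24% of all genes) and 7 higher (25.1% of all genes), with a median of −0.46. Scaling by library totals alone gave 9 lower (12.5% of all genes) and 5 higher (28.1% of all genes).

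**Figure D1:**
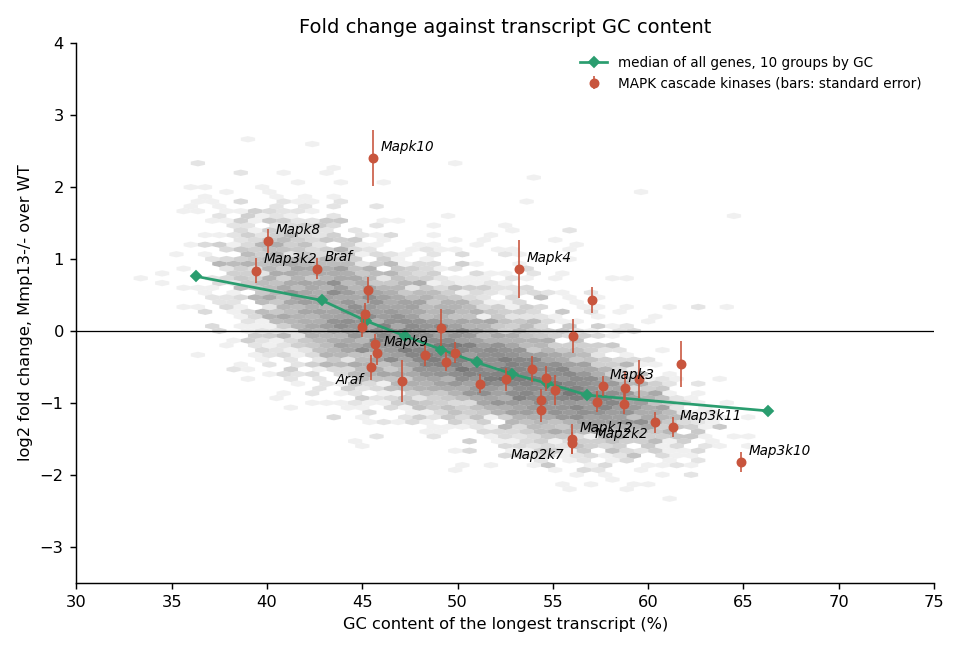
Log2 fold change (*Mmp13*-/- over WT, vertical axis) against the GC content of the longest transcript in percent (horizontal axis). Gray shading shows the number of genes among 10978 with a mean log2 CPM above 3 (34 lie above the axis), green diamonds the medians of 10 groups by GC content from 0.76 to −1.11, and red points with standard errors the 36 kinases, which fall from *Mapk8* at 40.1% GC and 1.25 to *Map3k10* at 64.9% GC and −1.82.

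The kinases followed the same course as all genes. Across the 36 kinases, which share libraries, fold change and GC content had a Spearman's rho of −0.717, and across 10978 well-expressed genes it was −0.696. After the correction it was −0.065 over the kinases. The 7 kinases that were lower over 2-fold had a GC content of 54.4% to 64.9%, and the 5 that were higher had 39.4% to 45.6%. Because both lists lie on opposite sides of the median kinase, at 53.6%, the values with and without the correction are given side by side for each member. *Mapk10* lay above the course, at 2.41 where well-expressed genes of its GC content had a median of 0.14. *Mapk10* itself was too scarce to be among those genes, and no median was taken over genes of its level.

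**Figure D2:**
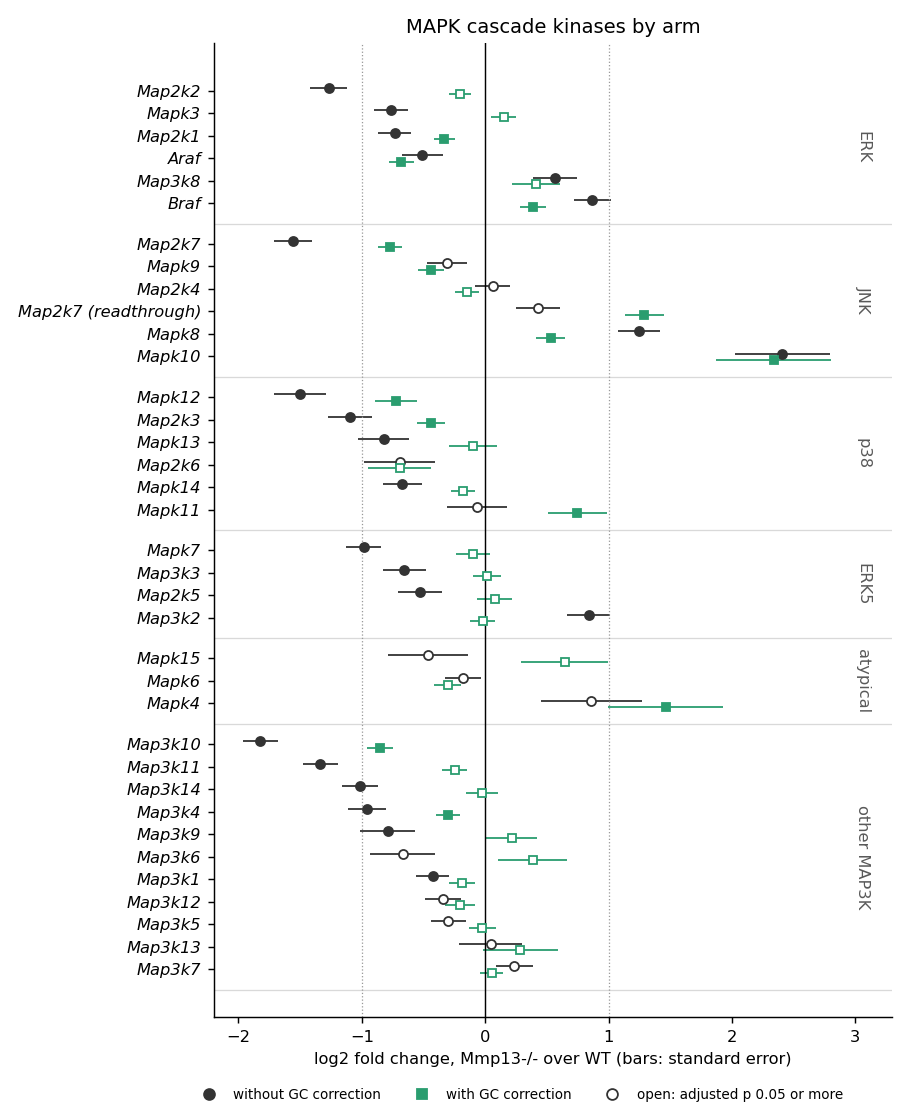
Log2 fold change of each kinase (*Mmp13*-/- over WT, horizontal axis, bars are standard errors) by arm, without (black circles) and with (green squares) the correction for GC content; filled symbols have an adjusted p under 0.05 and dotted lines mark 2-fold. JNK holds the highest values (*Mapk10* at 2.41 and 2.34), while the ERK5 genes move from between −0.98 and 0.84 to between −0.10 and 0.08.

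Levels per kilobase of exon, which allow genes to be set roughly side by side, spanned a wide range. The length is that of all annotated exons of a gene merged, so genes with exons unused in pulp read low. This limit holds for each comparison between genes, while comparisons between genotypes do not depend on it. In WT the highest were *Map2k3* at 749.5 ± 78.0, *Mapk14* at 692 ± 42.8, *Map2k1* at 595 ± 35.7, *Map2k2* at 569 ± 27.1 and *Map2k7* at 560.5 ± 32.7 normalized counts per kilobase (SD, n = 3). Along this order the samples of neighbouring genes overlapped, except that each *Mapk14* value was above each *Map2k1* value. The p38 kinase *Mapk14* thus led the terminal kinases in WT, ahead of *Mapk3* at 402 ± 45.1 and *Mapk6* at 372 ± 26.9. Lowest were *Mapk15* at 32.0 ± 5.48, *Map3k13* at 11.6 ± 0.697, *Mapk4* at 7.61 ± 1.73 and *Mapk10* at 2.10 ± 0.284. In *Mmp13*-/- *Mapk14* was the highest of all 36 at 434 ± 68.7, followed by *Map2k1* at 358 ± 25.2 and *Map2k3* at 351 ± 69.8. *Mapk8* moved from 33.0 ± 6.34 to 78.3 ± 6.45 on the same scale, and *Mapk10* from 2.10 ± 0.284 to 11.3 ± 5.91, still the lowest mean in *Mmp13*-/- but overlapping *Map3k13* at 12.2 ± 3.99.

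**Figure D3:**
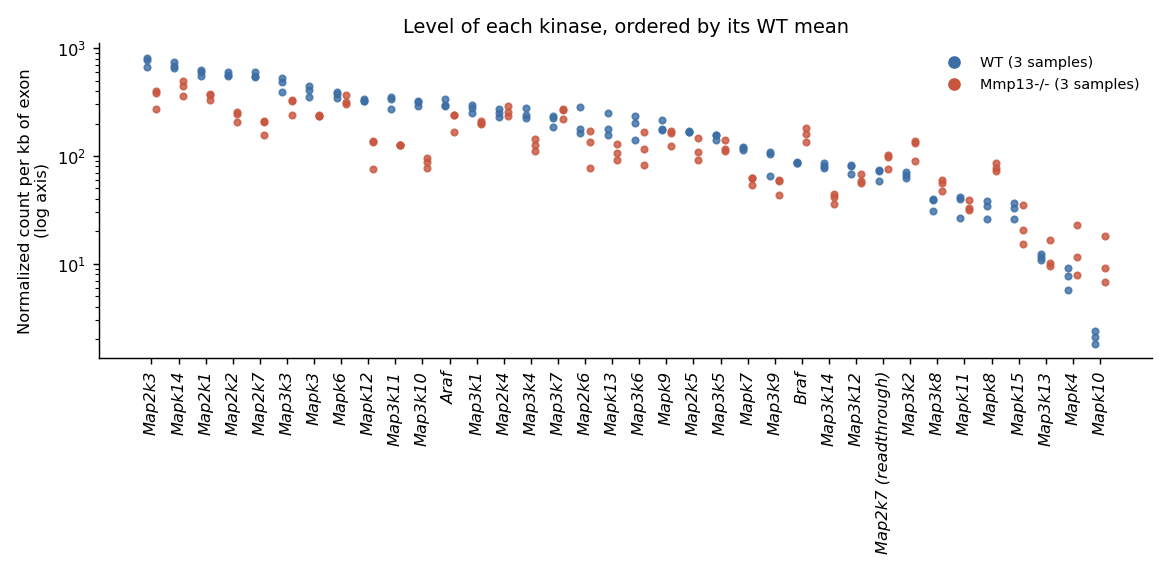
Normalized count per kilobase of exon (log axis) of the 36 kinases in each of 3 WT (blue) and 3 *Mmp13*-/- (red) samples, ordered by the WT mean. Levels in WT run from a mean of 750 for *Map2k3* to 2.10 for *Mapk10*, and red points lie below blue for most genes on the left, with *Mapk8*, *Braf*, *Map3k2* and *Mapk10* the other way.

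In the ERK arm all 6 genes measured passed the test, 4 lower and 2 higher, with a median log2 fold change of −0.62 and of −0.03 with the GC correction. With the correction 2 were lower and 1 higher, and scaled by library totals 1 was lower and 1 higher. The shares of all genes given above, 24.3% lower and 27.3% higher, or 13.2% and 23.7% with the GC correction, are the background for each arm and list. *Mapk3*, which encodes the terminal kinase ERK1, had normalized counts of 796, 996 and 930.4 in WT, against 533, 535 and 537 in *Mmp13*-/-. All deficient samples lay below all WT samples, and they were nearly equal to each other. This was a log2 fold change of −0.76 ± 0.14 (SE, adjusted p = 0.0015 in edgeR), from means of 907 ± 102 against 535 ± 2.11 (SD, n = 3). The direction turned and the call was lost with the GC correction, under which the log2 fold change was 0.15 (adjusted p = 0.277).

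The MAP2 kinases of the ERK arm, MEK1 and MEK2, are the direct activators of the ERK kinases. *Map2k2* (chr10:81105915-81133975) had normalized counts of 3089, 3391 and 3191 in WT, against 1401, 1445 and 1162 in *Mmp13*-/-. The genotypes were far apart. From 3224 ± 154 against 1336 ± 152 (mean ± SD, n = 3), edgeR estimated −1.27 ± 0.15 (SE) on the log2 scale, with an adjusted p = 0.000165. The value with the GC correction was −0.20 (adjusted p = 0.114), short of the call. *Map2k1* fell from 2016 ± 121 in WT to 1213 ± 85.4 in *Mmp13*-/- (SD, n = 3), by 0.73 on the log2 scale (adjusted p = 0.00154), and −0.33 (adjusted p = 0.0176) was reached with the GC correction, past the threshold. In such fits without WT sample 5 (adjusted p = 0.0637) or *Mmp13*-/- sample 1 (adjusted p = 0.0696) or 2 (adjusted p = 0.0524) it did not.

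The 2 Raf genes, whose kinases feed MEK1 and MEK2, moved in opposite directions. *Araf* had 2188, 1898 and 1953 normalized counts in WT and 1571, 1575 and 1094 in *Mmp13*-/-, without overlap. Mean values were 2013 ± 154 against 1413 ± 276 (SD, n = 3), which edgeR put at −0.51 ± 0.17 on the log2 scale (SE, adjusted p = 0.0288). The decrease was larger with the GC correction (−0.68, adjusted p = 0.00177) and passed in each fit that left out 1 sample. Without the correction it did not pass when WT sample 2 (adjusted p = 0.0679) or 5 (adjusted p = 0.0506) was left out. *Braf* had 1189, 1198 and 1228 in WT, against 2201, 2541 and 1851 in *Mmp13*-/-. WT samples lay close together, and each deficient sample was above them. In edgeR the genotypes differed by 0.87 ± 0.15 on the log2 scale (SE, adjusted p = 0.0012), with means of 1205 ± 20.7 against 2197 ± 345 (SD, n = 3). With the GC correction the increase remained (0.39, adjusted p = 0.0205), but it missed the threshold in such fits without WT sample 2 (adjusted p = 0.0697), WT sample 5 (adjusted p = 0.0694) or *Mmp13*-/- sample 2 (adjusted p = 0.0519). *Map3k8*, which encodes the MEK-activating kinase Tpl2, had 179.8, 140.0 and 176 in WT, against 256, 212 and 267 in *Mmp13*-/-. Means were 165 ± 22.1 against 245 ± 29.4 (SD, n = 3), and edgeR gave a log2 fold change of 0.57 ± 0.18 (SE, adjusted p = 0.0245). The threshold was missed without WT sample 4 (adjusted p = 0.119), WT sample 5 (adjusted p = 0.0726), *Mmp13*-/- sample 1 (adjusted p = 0.119) or *Mmp13*-/- sample 6 (adjusted p = 0.0574), and also with the GC correction (0.41, adjusted p = 0.125).

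Of the 6 genes of the JNK arm 2 rose, 1 fell and 3 did not pass, and with the GC correction 3 were higher and 2 lower. The median log2 fold change was 0.24, or 0.19 with the correction, but without the readthrough gene described below, whose value is uncertain, it was 0.06 and −0.15, against 0.10 and 0.22 over all genes. *Mapk8* (JNK1) and *Mapk9* (JNK2) are widely expressed, whereas *Mapk10* (JNK3) is known mainly from neurons and heart. *Mapk8* (chr14:33377898-33447158) had normalized counts of 443, 299 and 390.5 in WT, against 879, 977 and 833 in *Mmp13*-/-. Every deficient sample was above every WT sample. This was a log2 fold change of 1.25 ± 0.17 (SE, adjusted p = 0.000331 in edgeR), from means of 377 ± 72.6 against 896 ± 73.8 (SD, n = 3). Corrected for GC content, the increase was 0.53 (adjusted p = 0.0105) and kept its call, also when any single sample was left out.

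*Mapk10* (chr5:102907948-103211334) had 23.6, 20.2 and 26.5 in WT, against 76.0, 102 and 201 in *Mmp13*-/-. The samples did not overlap, and *Mmp13*-/- sample 6 was highest by a wide margin. From 23.4 ± 3.16 against 126 ± 65.8 (mean ± SD, n = 3), edgeR estimated 2.41 ± 0.39 (SE) on the log2 scale, with an adjusted p = 0.000795. The GC correction left it at 2.34 (adjusted p = 0.00647). Sample 6 is also the library with the highest background, and the background rate accounted for 19.1%, 17.6% and 42.2% of the *Mapk10* counts in *Mmp13*-/- samples 1, 2 and 6. After subtraction the log2 fold change was 2.14 (adjusted p = 0.000945), and without sample 6 it was 1.92. Of 11 tested neuronal and Schwann cell markers, 2 were higher and 2 lower, and their summed normalized count was 3153 to 9635 in WT and 3108 to 3617 in *Mmp13*-/-. The higher ones were the neurofilament genes *Nefm*, at or under 3 counts in each WT library and at normalized counts of 38.04, 26.4 and 91.2 in *Mmp13*-/-, and *Nefh*, at 9.17, 4.29 and 9.70 in WT, against 18.4, 26.6 and 93.0 in *Mmp13*-/-, both highest in sample 6. The lower ones were *Prx* (−1.42, adjusted p = 0.0139) and *Sox10* (−0.84, adjusted p = 0.0389). The other 7, among them the neuronal genes *Tubb3*, *Uchl1* and *Prph*, did not pass. With the GC correction 3 markers were higher and 0 lower. The part of these markers in the *Mapk10* result was not tested.

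*Mapk9* had 1474, 1218 and 1174 in WT, against 1104, 1168 and 845 in *Mmp13*-/-, without overlap but with a small gap. Mean values were 1288 ± 162 against 1039 ± 171 (SD, n = 3), which edgeR put at −0.31 ± 0.16 on the log2 scale (SE, adjusted p = 0.141). It passed with the GC correction, at −0.44 (adjusted p = 0.0136), and in each such fit with a sample left out. *Map2k4* and *Map2k7* encode the 2 direct activators of JNK, MKK4 and MKK7. *Map2k4* had 1277, 1072 and 1163 in WT, against 1369, 1198 and 1091 in *Mmp13*-/-, with overlap, and did not pass in either fit, at 0.06 and, with the GC correction, −0.15 (adjusted p = 0.249). *Map2k7* (chr8:4238740-4247897) had 2092, 2289 and 2057 in WT, against 783, 801 and 604 in *Mmp13*-/-. Its samples were widely separated. In edgeR the genotypes differed by −1.55 ± 0.15 on the log2 scale (SE, adjusted p = 9.68e-05), with means of 2146 ± 125 against 729 ± 109 (SD, n = 3). After the GC correction the value was −0.77 (adjusted p = 0.00105), and the call held in each such fit that left out 1 sample. The other gene with the symbol *Map2k7* (chr8:4238865-4251423; readthrough in the plots) shares 45.9% of its 50-base stretches with the first and 52.5% with the neighbouring *Tgfbr3l*, all on the same strand. It had 207, 212 and 170.0 in WT, against 279.5, 291 and 218 in *Mmp13*-/-, with a log2 fold change of 0.43 (adjusted p = 0.0698) and of 1.29 (adjusted p = 0.000876) with the GC correction. How the counting shared reads between these genes is not given in the sources used here, so its value is uncertain.

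**Figure D4:**
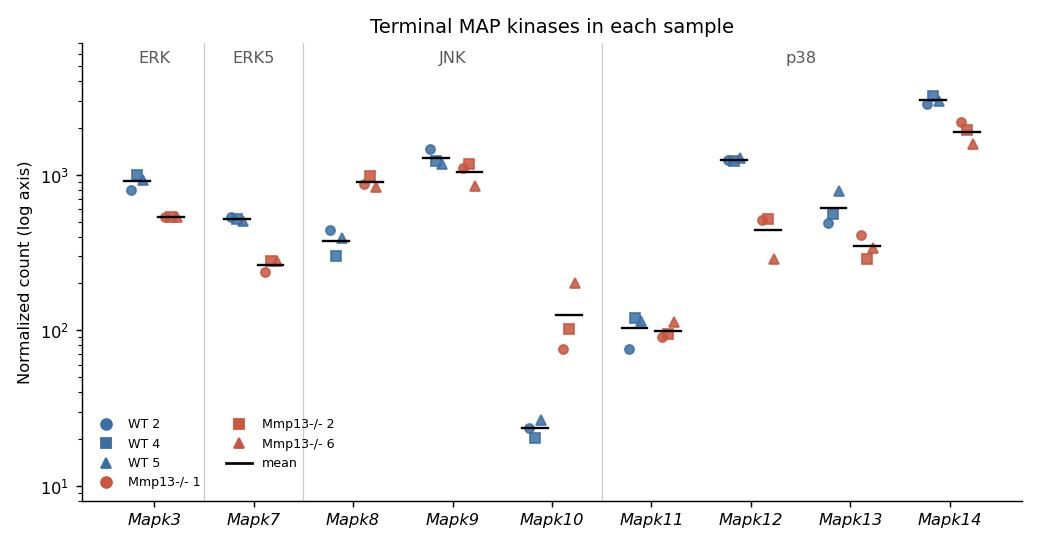
Normalized counts (log axis) of 9 terminal MAP kinases in each sample, with WT in blue, *Mmp13*-/- in red, symbols for the sample numbers and black bars for the means. *Mapk8* and *Mapk10* are higher in all *Mmp13*-/- samples (means of 896 and 126 against 377 and 23.4), *Mapk11* overlaps, and the other 6 are lower in all *Mmp13*-/- samples.

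In the p38 arm none of 6 genes rose (27.3% of all genes did) and 4 fell (24.3% of all genes), while 2 were lower and 1 higher with the GC correction. The median log2 fold change was −0.76, or −0.31 with the correction. *Mapk14* encodes p38α, the isoform found in most cells. It had 2869, 3233 and 2976 in WT, against 2179, 1931 and 1581 in *Mmp13*-/-, without overlap. Means were 3026 ± 187 against 1897 ± 301 (SD, n = 3), and edgeR gave a log2 fold change of −0.67 ± 0.16 (SE, adjusted p = 0.00576). The GC correction brought it to −0.18 (adjusted p = 0.184), without the call.

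*Mapk12* encodes p38γ, which is known for its high level in skeletal muscle. *Mapk12* (chr15:89130584-89140703) had 1238, 1231 and 1291 in WT, against 513, 520.0 and 288 in *Mmp13*-/-. WT samples were nearly equal, and *Mmp13*-/- sample 6 was the lowest. This was a log2 fold change of −1.50 ± 0.21 (SE, adjusted p = 0.000385 in edgeR), from means of 1253 ± 32.9 against 441 ± 132 (SD, n = 3). It kept the call with the GC correction (−0.73, adjusted p = 0.0123) and in each such fit that left out 1 sample. Skeletal muscle markers moved the same way, since 12 of 18 were lower over 2-fold (9.68% of all genes) and none was higher, and their summed normalized count was 3024610 to 3575540 in WT and 845225 to 1838670 in *Mmp13*-/-, again lowest in sample 6. Among them *Acta1* was at −1.88 (adjusted p = 0.00154) and *Ckm* at −1.78 (adjusted p = 0.00236). With the GC correction they were at −1.04 (adjusted p = 0.0202) and −1.19 (adjusted p = 0.0144), and 6 of the 18 markers were lower over 2-fold (3.3% of all genes). Their part in the *Mapk12* result was not tested.

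*Mapk13* (p38δ) had 488, 562 and 788 in WT, against 411, 289 and 338 in *Mmp13*-/-, where the highest deficient sample was below the lowest WT sample. From 613 ± 157 against 346 ± 61.5 (mean ± SD, n = 3), edgeR estimated −0.82 ± 0.21 (SE) on the log2 scale, with an adjusted p = 0.0081. Corrected for GC content, it was −0.10 (adjusted p = 0.706). *Mapk11* (p38β) was low, at 76.1, 119 and 115 in WT, against 90.6, 94.6 and 112 in *Mmp13*-/-, and the samples overlapped. Mean values were 104 ± 23.9 against 99.2 ± 11.7 (SD, n = 3), which edgeR put at −0.07 ± 0.24 on the log2 scale (SE, adjusted p = 0.834). With the GC correction the direction turned and the value passed, at 0.75 (adjusted p = 0.0406), but with a sample left out it passed only without *Mmp13*-/- sample 1 (adjusted p = 0.0456) and elsewhere had an adjusted p of 0.0609 to 0.106.

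*Map2k3* and *Map2k6* encode MKK3 and MKK6, the activators of p38. *Map2k3* (chr11:60932033-60952811) had 2197, 2698 and 2558 in WT, against 1323, 1267 and 897 in *Mmp13*-/-. The genotypes did not overlap. In edgeR the genotypes differed by −1.09 ± 0.18 on the log2 scale (SE, adjusted p = 0.000817), with means of 2484 ± 258 against 1162 ± 231 (SD, n = 3). The GC correction gave −0.44 (adjusted p = 0.018), and it did not pass when WT sample 4 (adjusted p = 0.0613) or 5 (adjusted p = 0.0529) was left out as well. *Map2k6* varied widely within WT, at 977, 608 and 558, against 462, 588 and 268 in *Mmp13*-/-, and the samples overlapped. Means were 714 ± 229 against 439 ± 161 (SD, n = 3), and edgeR gave a log2 fold change of −0.69 ± 0.29 (SE, adjusted p = 0.068). The value with the GC correction was −0.69 (adjusted p = 0.0648). Without it *Map2k6* passed in DESeq2 (adjusted p = 0.036), and in edgeR when WT sample 5 (adjusted p = 0.0349) or *Mmp13*-/- sample 2 (adjusted p = 0.014) was left out.

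In the ERK5 arm 3 of 4 genes fell and 1 rose, and none passed with the GC correction, when the median moved from −0.59 to −0.00. *Mapk7*, which encodes ERK5, had 537, 521 and 503 in WT, against 236, 277 and 278 in *Mmp13*-/-. Samples within each genotype were close together, and the genotypes did not overlap. This was a log2 fold change of −0.98 ± 0.14 (SE, adjusted p = 0.000454 in edgeR), from means of 520.3 ± 16.8 against 264 ± 23.7 (SD, n = 3). With the GC correction it was −0.10 (adjusted p = 0.605). *Map2k5* encodes MEK5, the activator of ERK5. It had 547, 541 and 540.3 in WT, against 354, 473 and 298 in *Mmp13*-/-, lower in each deficient sample. From 543 ± 3.83 against 375 ± 89.0 (mean ± SD, n = 3), edgeR estimated −0.53 ± 0.18 (SE) on the log2 scale, with an adjusted p = 0.03. After the GC correction the value was 0.08 (adjusted p = 0.709), and without the correction it did not pass when WT sample 4 (adjusted p = 0.0608), *Mmp13*-/- sample 1 (adjusted p = 0.0658) or *Mmp13*-/- sample 6 (adjusted p = 0.0594) was left out.

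*Map3k2* and *Map3k3* encode MEKK2 and MEKK3, close paralogs that activate MEK5. *Map3k3* had 1584, 2134 and 1945 in WT, against 1313, 1317 and 960.5 in *Mmp13*-/-, lower in each deficient sample. Mean values were 1888 ± 279 against 1197 ± 204 (SD, n = 3), which edgeR put at −0.66 ± 0.17 on the log2 scale (SE, adjusted p = 0.0104). *Map3k2* had 999.98, 882 and 928 in WT, against 1910.2, 1844 and 1261 in *Mmp13*-/-, higher in each deficient sample. In edgeR the genotypes differed by 0.84 ± 0.17 on the log2 scale (SE, adjusted p = 0.00303), with means of 937 ± 59.6 against 1672 ± 357 (SD, n = 3). Their transcripts differ in GC content by 15.2 percentage points, and with the correction neither differed between genotypes beyond its error, at 0.02 (adjusted p = 0.924) for *Map3k3* and −0.02 (adjusted p = 0.893) for *Map3k2*.

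None of the 3 atypical MAP kinases passed the test, and their median was −0.18, turning to 0.03 with upper-quartile factors and 0.64 with the GC correction. *Mapk6* (ERK3), the most abundant of them, had 2284, 2528 and 2635 in WT, against 2433, 2132 and 2006 in *Mmp13*-/-, with overlap and a log2 fold change of −0.18 (adjusted p = 0.32), or −0.30 (adjusted p = 0.0628) with the GC correction. *Mapk4* (ERK4) was scarce, at 31.2, 42.2 and 49.8 in WT, against 62.5, 42.5 and 123 in *Mmp13*-/-, with overlap and with sample 6 far above the rest. Means were 41.1 ± 9.36 against 76.1 ± 42.1 (SD, n = 3), and edgeR gave a log2 fold change of 0.86 ± 0.41 (SE, adjusted p = 0.101). Corrected for GC content, *Mapk4* passed (1.46, adjusted p = 0.0388), but not when sample 6 was left out as well (adjusted p = 0.0699), nor without any 1 WT sample (adjusted p of 0.0711 to 0.109). The background rate accounted for 33.3% of its counts in sample 6. *Mapk15* had 66.9, 94.7 and 84.3 in WT, against 39.6, 52.9 and 89.3 in *Mmp13*-/-, with overlap and a log2 fold change of −0.46 (adjusted p = 0.259), turning to 0.64 (adjusted p = 0.184) with the GC correction.

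Of the 11 other MAP3 kinases, which relay stress, cytokine and TGF-β signals, 6 fell, none rose and 5 did not pass, with a median of −0.67. With the GC correction 2 were lower and the median was −0.03. The largest decreases were those of 2 mixed-lineage kinases, a family that activates the JNK arm. *Map3k10* (MLK2; chr7:27656375-27674598) had 1303, 1336 and 1207 in WT, against 399, 367 and 319 in *Mmp13*-/-. Its decrease was the largest of all 36 genes, and the samples were far apart. This was a log2 fold change of −1.82 ± 0.14 (SE, adjusted p = 4.22e-05 in edgeR), from means of 1282 ± 66.8 against 362 ± 40.1 (SD, n = 3). Corrected for GC content, it was −0.85 (adjusted p = 0.000878), with the call also in each such fit that left out 1 sample. Its exons overlap those of *Ttc9b* on the opposite strand over 14.8% of their length, and whether strand was used in counting is not given in the sources used here.

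*Map3k11* (MLK3; chr19:5688742-5702865) had 1195, 1533 and 1483 in WT, against 554, 559 and 552 in *Mmp13*-/-, and the deficient samples were nearly equal. From 1404 ± 182 against 555 ± 3.68 (mean ± SD, n = 3), edgeR estimated −1.34 ± 0.14 (SE) on the log2 scale, with an adjusted p = 0.00013. The GC correction moved it to −0.25 (adjusted p = 0.0883). *Map3k9* (MLK1) had 386, 642 and 622 in WT, against 343, 254 and 357 in *Mmp13*-/-, without overlap, and its log2 fold change of −0.79 (adjusted p = 0.0127) turned to 0.21 (adjusted p = 0.446) with the GC correction. All 3 mixed-lineage kinases called lower thus lie at a GC content of 58.8% or more, and 1 of them kept its call with the correction.

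*Map3k14* (NIK; chr11:103219762-103267472), the kinase of the noncanonical NF-κB pathway, had 509.9, 561 and 530.5 in WT, against 233, 289 and 272 in *Mmp13*-/-. Both genotypes had little spread and did not overlap. Mean values were 534 ± 25.9 against 265 ± 28.6 (SD, n = 3), which edgeR put at −1.01 ± 0.15 on the log2 scale (SE, adjusted p = 0.000464). The GC correction gave −0.03 (adjusted p = 0.886). *Map3k4* (MEKK4), a target of the Gadd45 proteins, fell from 2515 ± 259.6 in WT to 1294 ± 175 in *Mmp13*-/- (SD, n = 3), by 0.96 on the log2 scale (adjusted p = 0.000828), and also with the GC correction (−0.30, adjusted p = 0.045), but with a sample left out it passed only without *Mmp13*-/- sample 1 (adjusted p = 0.049) and elsewhere had an adjusted p of 0.0642 to 0.154. *Map3k1* (MEKK1) had 1859, 2066 and 2195 in WT, against 1583, 1496 and 1475 in *Mmp13*-/-, without overlap. In edgeR the genotypes differed by −0.43 ± 0.13 on the log2 scale (SE, adjusted p = 0.0226), with means of 2040.1 ± 169 against 1518 ± 57.2 (SD, n = 3). Leaving out WT sample 4 (adjusted p = 0.0565), WT sample 5 (adjusted p = 0.0797) or *Mmp13*-/- sample 2 (adjusted p = 0.0527) lost the call, and with the GC correction it was −0.19 (adjusted p = 0.183).

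The 5 that did not pass were *Map3k5* (ASK1) at −0.30, *Map3k6* (ASK2) at −0.67, *Map3k7* (TAK1) at 0.23, *Map3k12* (DLK) at −0.34 and *Map3k13* (LZK) at 0.05. With the GC correction they were at −0.02 (adjusted p = 0.883), 0.38 (adjusted p = 0.308), 0.05 (adjusted p = 0.684), −0.21 (adjusted p = 0.207) and 0.28 (adjusted p = 0.493) in that order. Their 95% intervals, not adjusted over genes, stayed within 2-fold but for *Map3k6*, whose interval was −1.18 to −0.15. A normal quantile was used for these intervals, which makes them somewhat too narrow for so few samples. *Map3k6* had 653, 929 and 1081 in WT, against 535, 377 and 772 in *Mmp13*-/-, with overlap, and its direction turned with the correction. It passed in DESeq2 (adjusted p = 0.0211), and in edgeR without WT sample 2 (adjusted p = 0.0149) or *Mmp13*-/- sample 6 (adjusted p = 0.0123). *Map3k5* (adjusted p = 0.0483) and *Map3k12* (adjusted p = 0.0469) passed without *Mmp13*-/- sample 2. *Map3k7*, which joins TGF-β and interleukin-1 receptors to the p38 and JNK arms, went from 1381 ± 171 in WT to 1623 ± 169.6 in *Mmp13*-/- (SD, n = 3), and was called higher with upper-quartile factors (0.44, adjusted p = 0.0106) and with the background subtracted (0.38, adjusted p = 0.0311).

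Ratios of paralogous or partner kinases within each library do not depend on library scaling, and 11 pairs were chosen after values were seen. Of these, 9 did not overlap between genotypes, and 7 did not with the GC correction. Because of that choice the 2 counts are no result about the kinases, and no share over other gene pairs was computed. An exact permutation test of 3 against 3 samples cannot go below p = 0.1 (two-sided), so no test is given. *Mapk8* over *Mapk9*, per kilobase of exon, was 0.178, 0.146 and 0.197 in WT, against 0.472, 0.496 and 0.584 in *Mmp13*-/-. JNK1 transcripts thus stood nearer to JNK2 in each deficient sample, with a log2 change of 1.58, or 0.97 with the GC correction. *Braf* over *Araf* was 0.256, 0.298 and 0.297 in WT, against 0.661, 0.761 and 0.798 in *Mmp13*-/-. The log2 change of 1.38 was 1.07 with the GC correction, and these genes differ by only 2.81 percentage points in GC content. *Map2k7* over *Map2k4* was 1.996, 2.60 and 2.15 in WT, against 0.696, 0.815 and 0.675 in *Mmp13*-/-. Without the correction the more abundant JNK activator was thus *Map2k7* in each WT sample and *Map2k4* in each deficient sample. The log2 change of −1.62 shrank to −0.63 with the correction and still did not overlap. With the correction *Map2k7* remained the more abundant in *Mmp13*-/- sample 2, so the order did not turn in each deficient sample.

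*Mapk12* over *Mapk14* changed by −0.87 (−0.58 with the GC correction) and *Mapk11* over *Mapk14* by 0.64 (0.94 with it), without overlap in either case. *Mapk13* over *Mapk14* and *Map2k3* over *Map2k6* overlapped. *Map3k2* over *Map3k3* changed by 1.48 on the log2 scale but by −0.04 with the GC correction, where it overlapped, and *Map2k2* over *Map2k1* by −0.54 but by 0.13, also with overlap. These pairs differ by 15.2 and 9.18 percentage points in GC content.

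**Figure D5:**
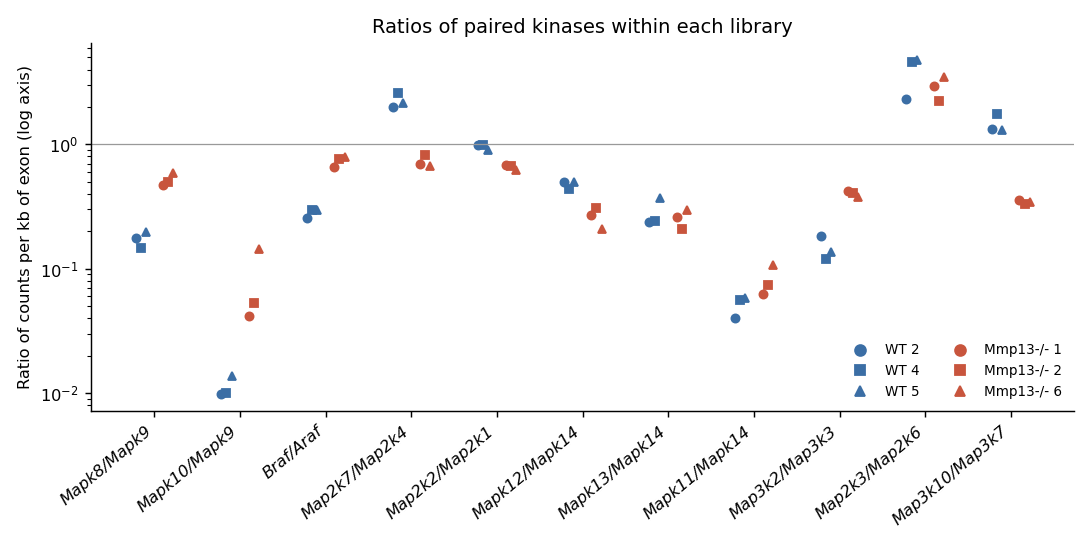
Ratio of normalized counts per kilobase of exon (log axis) for 11 pairs of kinases in each WT (blue) and *Mmp13*-/- (red) library, before the GC correction. *Mapk8*/*Mapk9*, *Mapk10*/*Mapk9* and *Braf*/*Araf* are higher in every *Mmp13*-/- library and *Map2k7*/*Map2k4* lower, while *Mapk13*/*Mapk14* and *Map2k3*/*Map2k6* overlap.

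Other genes of the pathway were counted from lists written by hand. Among 16 scaffolds and adaptors, which hold kinases of a cascade together, 10 fell (24.3% of all genes) and 3 rose (27.3%), or 5 (13.2% of all genes) and 2 (23.7%) with the GC correction. *Ksr1*, the scaffold of Raf, MEK and ERK, stood at 3576 ± 469 in WT and 1058 ± 296 in *Mmp13*-/- (SD, n = 3) with a log2 fold change of −1.75 (adjusted p = 0.000228), and at −0.89 (adjusted p = 0.00871) with the correction. *Gadd45g*, whose product activates MEKK4, stood at 1378 ± 348 in WT and 304 ± 21.8 in *Mmp13*-/- (SD, n = 3), with −2.18 (adjusted p = 7.67e-05) and −1.12 (adjusted p = 0.00222) in the same order. *Tab1*, the partner of TAK1, was at −1.22 (adjusted p = 0.000205), and *Mapk8ip1*, the JNK scaffold JIP1, at −1.24 (adjusted p = 0.000274), and both lost the call with the correction, at −0.28 (adjusted p = 0.0962) and −0.20 (adjusted p = 0.279).

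Of 16 genes of the Ras inputs 7 fell and 4 rose (7 and none with the GC correction), against the same shares of all genes, and the one called over 2-fold was *Rap1a*, a small GTPase that can engage B-Raf, at 1.27 (adjusted p = 0.00176) and with the correction 0.31 (adjusted p = 0.144). Of 10 MAP4 kinases, 5 fell and none rose (3 and 1), with *Mink1* at −1.21 (adjusted p = 0.000292) and *Taok2* at −1.19 (adjusted p = 0.000318). With the correction *Mink1* lost the call, at −0.27 (adjusted p = 0.144), and *Taok2* kept it, at −0.33 (adjusted p = 0.0338). Among 11 kinases that are themselves MAPK substrates, 6 fell and 2 rose (4 and 1). *Mknk2* was at −1.53 (adjusted p = 0.000121), *Mapkapk2*, the classical p38 substrate kinase, at −1.44 (adjusted p = 0.000345), *Rps6ka2* at −1.42 (adjusted p = 0.000397) and *Rps6ka4* at −1.11 (adjusted p = 0.000298). The first 3 kept their call with the GC correction, at −0.46 (adjusted p = 0.0178), −0.53 (adjusted p = 0.0168) and −0.79 (adjusted p = 0.00546), and *Rps6ka4* did not, at −0.04 (adjusted p = 0.776). Of 11 transcription factors that MAP kinases phosphorylate directly or through those kinases, 7 fell and 3 rose (4 and 1), with *Mef2d* at −1.49 (adjusted p = 0.000185), *Srf* at −1.44 (adjusted p = 0.000308) and *Creb1* at 1.29 (adjusted p = 0.000327). With the correction *Mef2d* was at −0.79 (adjusted p = 0.00219), *Creb1* at 0.48 (adjusted p = 0.0052) and *Srf*, without the call, at −0.45 (adjusted p = 0.0605). Of 4 further MAP3 kinases tested outside the 36, 1 fell and 1 rose. The one that rose was the scarce *Map3k19*, at 2.03, 3.55 and 8.13 in WT, against 9.61, 42.1 and 74.6 in *Mmp13*-/-, highest in sample 6, and with the background subtracted too few counts were left to test it.

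The tissue was checked against marker genes, and cell types other than pulp cells moved with the genotype. All 12 odontoblast markers were detected, 4 higher and 5 lower in *Mmp13*-/-, and their summed normalized count was 1522850 to 1706040 in WT and 481455 to 636598 in *Mmp13*-/-. Most of that sum is the collagen genes *Col1a1* and *Col1a2*, and the other 10 markers summed to 58682 to 101470 in WT and 83914 to 122471 in *Mmp13*-/-, with overlap. The markers that rose were *Dspp*, *Phex*, *Ibsp* and *Mepe*, and those that fell were *Col1a1*, *Col1a2*, *Nes*, *Sp7* and *Alpl*. With the GC correction 4 odontoblast markers were higher and 1 lower. Neutrophil markers were higher for 11 of 12 (27.3% of all genes were), with sums of 4337 to 8972 in WT and 21105 to 50954 in *Mmp13*-/-. B cell markers were higher for 9 of 10 (1296 to 1450 against 2130 to 3138), erythroid markers for 7 of 9 in the table (24599 to 40126 against 58304 to 109412) and proliferation markers for 10 of 12 (3238 to 4188 against 8896 to 14594). No marker was at 0 in all libraries. The part of these cells in the kinase results was not tested.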

How the data were processed

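Pulp RNA of 3 WT and 3 *Mmp13*-/- samples was compared by genotype, as given in the labels. The authors used Strand NGS to turn paired-end reads into estimated counts, deposited with fractions, as arise when reads are shared between genes or transcripts. The deposited log2 values hold the same counts after median-of-ratios scaling, a threshold and subtraction of the gene's median by the authors. Computed again here, they matched to rounding. The submitters' processing notes name mm10 and DESeq. The annotation release, aligner settings and use of strand are not given in the sources used here. The methods name incisors and TRIzol, and the labels name molars and a column kit.

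After rounding, genotypes were compared by edgeR 4.0.16 under R 4.3.3 (quasi-likelihood test, TMM factors, filterByExpr by genotype, Benjamini-Hochberg adjustment over all genes, no covariates). A gene was called at an adjusted p under 0.05, and separately with a change over 2-fold. The study's own test, gene by gene on log2 values, was run as an alternative. Standard errors come from the quasi-likelihood statistic, and p-values measure the spread between these samples. Normalized counts are counts over the TMM-scaled library size, brought to the mean library. Gene position, exon length and the GC content of the longest transcript were taken from GENCODE M21 (GRCm38, the mm10 assembly), matched by Ensembl identifier for 99.8% of genes. The GC correction was a loess fit per library (span 0.4, fitted where the mean log2 CPM exceeded 3), entered as offsets. Background was the count per kilobase over 1451 receptor genes, subtracted in proportion to exon length. Scripts were tested on simulated data.

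Members, arms, pathway lists, marker lists and tests were chosen with earlier results of these data known. All members are accounted for. Values in every sample are given for those called over 2-fold, for the terminal kinases and for those whose call or direction changes with the GC correction. Other pathway genes are named if called over 2-fold, at most 4 of each list by adjusted p. Some listed genes are not reported here. Exceptions named after their values were seen are the marker genes.

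Alternatives were RLE and upper-quartile factors, total counts, a minimum of 10 counts in each sample, testing without a filter, DESeq2 1.42.0, limma 3.58.1 on the deposited log2 values, a test against 2-fold, each sample left out, the GC correction and background subtraction. Chosen after seeing the data were the GC correction with a sample left out, the JNK arm without the readthrough gene and the odontoblast markers without the collagen genes.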

Additional observations from a re-analysis of the deposited data

How the results depend on the processing

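No paired analysis was possible because the genotypes share only the replicate number 2, so that no replicate block could be fitted. Kinases lower at any fold numbered 18, but 9 with total counts, 8 with the GC correction and 8 with the GC correction and background subtraction. Those lower over 2-fold numbered 7, but 0 with the GC correction, 0 with both corrections and 4 when tested against 2-fold, and 7 to 11 with a sample left out, where 11 came without WT replicate 2. Kinases higher at any fold numbered 5, but 3 by the study's procedure, which was run here with Benjamini-Hochberg adjustment in place of Storey q-values. Those higher over 2-fold numbered 2, but 4 with upper-quartile factors and 1 when tested against 2-fold. The median log2 fold change of −0.52 was −0.32 with upper-quartile factors, −0.40 with total counts, −0.40 with 10 counts in every sample, −0.62 without a filter, −0.60 in limma, −0.60 by the study's procedure, −0.063 with the GC correction, −0.12 with both corrections and −0.60 to −0.42 with a sample left out. Upper-quartile factors, total counts and the GC correction moved the median of all genes by 0.21, 0.11 and 0.11. With the GC correction and a sample left out, 6 to 8 kinases were lower, 3 to 6 higher and 0 lower over 2-fold. Directions turned with the GC correction for *Mapk3* (0.15), *Map3k3* (0.016), *Map2k5* (0.075), *Map3k9* (0.21), *Map3k2* (−0.020), *Map3k6* (0.38), *Map2k4* (−0.15), *Mapk15* (0.64) and *Mapk11* (0.75). With both corrections they turned for the same genes (0.17, 0.042, 0.073, 0.16, −0.024, 0.40, −0.12, 0.46 and 0.63 in that order) and *Map3k13* (−0.16), and with background subtraction for *Map3k13* (−0.25). Genes near 0 turned elsewhere, namely *Mapk6* (0.027) and *Mapk11* (0.15) with upper-quartile factors, *Mapk11* with total counts (0.027) and with 10 counts in every sample (0.057), and *Map2k4* and *Map3k13* without a filter (−0.047, −0.073), in limma and by the study's procedure (−0.0041, −0.037 in both). With a sample left out, *Map2k4* ranged from −0.095 to 0.14, *Mapk11* from −0.32 to 0.0074 and *Map3k13* from −0.23 to 0.13. The 23 called kinases held direction and call in 23 cases with RLE factors, 22 with DESeq2, 21 with background subtraction, 20 in limma, 15 by the study's procedure and 10 with the GC correction. The cause of these differences was not tested. Depth limits *Mapk10*, *Mapk4*, *Map3k13*, *Mapk15* and *Mapk11* most, where the background rate accounts for 19.5% to 45.3% of the counts in *Mmp13*-/- sample 6.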
